A study of Nicotiana tabacum with 20 samples.

Results

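In leaves of *Nicotiana tabacum* (tobacco), 7 of 24069 measured UniGene sequences, called features here, were low in the first generation of 2 hairpin lines and higher in the second generation of 1 of them. Reads of each library were divided by a size factor, which gives scaled reads, and 1 was added to each group's mean of scaled reads. A feature was taken when that value was at least 20 in HP1_T2, in C and in WT, and when the value in HP8_T1 and in HP1_T1 was at most 0.5 times each of these 3. The members were thus chosen by the group means of all 5 groups, so the low T1 values and the higher HP1_T2 values below are a description and were not tested. Only differences that the rule did not set were tested, namely HP1_T2 against WT, HP1_T2 against C, C against WT, and HP8_T1 against HP1_T1. The rule set no direction for these, but it used the group means of the same libraries. Their p-values and counts are thus those of chosen features, whereas the features given beside them were not chosen in this way.

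The study asked how gene expression in tobacco responds when the control of a retrotransposon is altered. Hairpin plants carried a 35S-driven inverted repeat of a reverse transcriptase fragment of the retrotransposon Tnt1, a hygromycin resistance gene and a GUS reporter. HP1_T2 is the selfed progeny of HP1_T1, a first-generation (T1) plant of hairpin line 1 regenerated after transformation, and HP8_T1 is a T1 regenerant of line 8. The references were C, regenerants that received the empty vector (35S promoter, intron and terminator with hygromycin resistance, no GUS named), and untransformed wild-type plants, WT. Each group had 4 libraries of total leaf RNA, all from plants 45 days old, grown in vitro under a photoperiod of 14 h at 24 °C. The labels give 1 line for each hairpin group and neither line nor generation for C, and nothing in them tells whether the 4 libraries of a group are separate plants. P-values therefore measure only the spread among libraries within groups, which may be technical. In the main fit this spread was estimated from all 20 libraries together. HP1_T2 differs from HP1_T1 both in generation and in having grown from seed, and these cannot be told apart here.

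A hairpin RNA folds back on itself into double-stranded RNA, which plant Dicer-like enzymes cut into small interfering RNAs. These guide Argonaute proteins to matching transcripts and can also direct DNA methylation of matching loci. Tnt1 is a copia-type element that moves through an RNA copy and is known for activity under stress and in tissue culture. The files do not pair identifiers with gene names, and 0 of the 24069 identifiers matched the RefSeq table of tobacco genes at hand, so no function is given to any of the 7 features. They are called by their length, which differs between all 7, and the 2 with the largest fitted fall between HP1_T2 and WT are also given by identifier. Sequences of these features were not used here.

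The libraries held 1958952 to 3638494 gene reads. A single feature took 73.8% to 90.5% of them, and 199341 to 647426 reads remained outside it. Size factors ranged from 0.512 to 1.74. The 7 features together had a median of 226.5 reads per library in HP1_T2, 87 in HP8_T1, 123.5 in HP1_T1, 328.5 in C and 2029.5 in WT. With the 952-base feature left out, libraries had 167 to 186 reads in HP1_T2, 60 to 84 in HP8_T1, 59 to 103 in HP1_T1, 105 to 159 in C and 283 to 408 in WT. Their counts in single T1 libraries are therefore small, and the SEs and intervals below carry this counting error as well as the spread between libraries.

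All 7 features had their highest mean scaled reads in WT, then in C, then in HP1_T2, and HP1_T2 lay above both T1 groups, as the rule required. The share of all features with this order was not counted, and features just outside the rule, given below, had it too. HP1_T2 stood at 2.49% to 68.5% of the WT level (median 43.8%) and at 18.5% to 97.2% of the C level (median 82.3%), and at 2.06 to 4.07 times the HP1_T1 level, each on the scale of mean scaled reads plus 1. The features were thus low in T1 hairpin plants and intermediate in HP1_T2, and calling them recovered in the second generation does not mean a return to the WT mean, which HP1_T2 reached in none of them on this scale. In these bulk samples, fewer cells of a type and less RNA per cell cannot be told apart.

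The lowest of the 3 required group values was that of HP1_T2 for all 7 features, and it lay between 22.9 and 50.02. Just inside the rule were the 886-base feature, with a T1 value 0.489 times the HP1_T2 value, and the 579-base feature, with 0.486 times; the 731-base feature, at 22.9 in HP1_T2, was nearest to the minimum of 20. Just outside, features of 910, 953 and 946 bases had ratios of 0.527, 0.534 and 0.538, and a feature of 902 bases reached only 18.9 in HP1_T2. The 953-base feature outside the rule had values of 114.9 in HP1_T2, 43.5 in HP8_T1, 61.4 in HP1_T1, 340.1 in C and 2485 in WT, a shape close to that of the 952-base member. The same order held in the 910-base feature (34.4 in HP1_T2, 97.6 in C, 817.9 in WT) and the 946-base feature (28.7, 130.4 and 1685). It did not hold in a feature of 559 bases outside the minimum, with 11.42 in HP1_T2, 11.38 in C and 15.98 in WT. With the T1 and other groups exchanged in the rule, 25 features were high in both T1 groups and low elsewhere. The choice depended on how libraries were scaled: 7 features also met the rule with TMM factors and 0 with library totals. With the remainder scaling, in which the sum of all reads but those of the most abundant feature sets the scale, 5 met it. When each of the 20 libraries was left out in turn, 5 of the 7 features were kept every time, the 886-base feature 16 times and the 579-base feature 17 times.

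**Figure D1:**
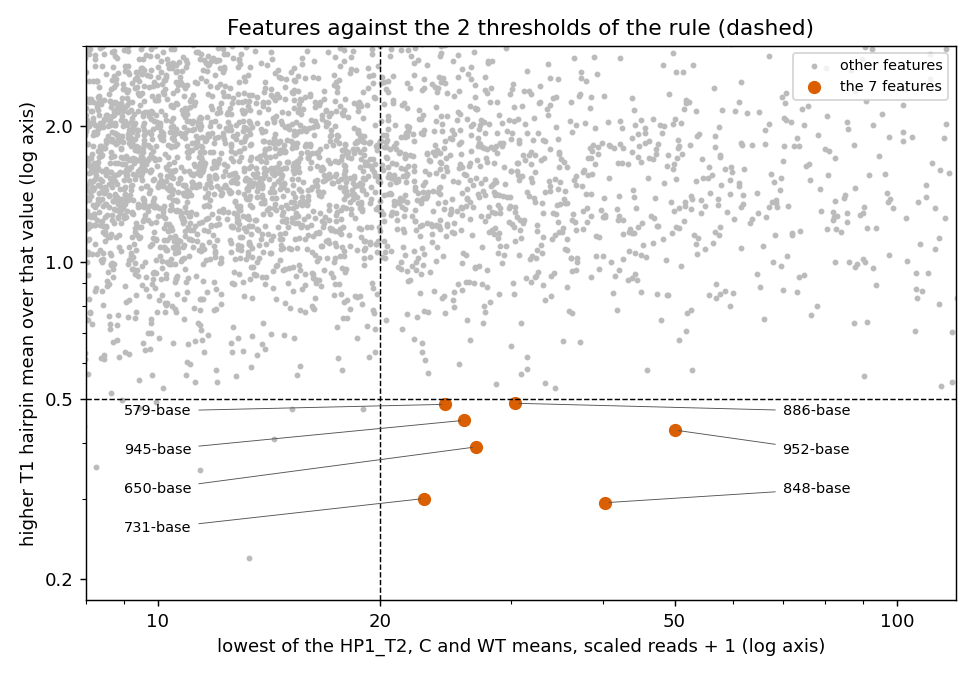
Each point is a feature, placed by the lowest of its HP1_T2, C and WT group means plus 1 (horizontal, log axis) and by the higher of its T1 hairpin means plus 1 divided by that value (vertical, log axis). Only features with a horizontal value of 8 to 120 and a vertical value of 0.18 to 3 are drawn; the 7 members lie below the dashed ratio of 0.5 and right of the dashed level of 20, with the 886-base and 579-base features close under the ratio line.

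The 952-base feature (Nta#S33535468) had by far the highest level of the 7 in WT. In HP1_T2 it had 42.8, 57.8, 45.8 and 49.6 scaled reads, against 8.72, 19.5, 9.08 and 13.2 in HP8_T1 and 15.9, 15.2, 27.04 and 23.2 in HP1_T1. In C it had 283, 279, 255 and 257 scaled reads, against 2085, 2021, 2022 and 1904 in WT. No library of HP1_T2 overlapped with one of C or WT, and the 4 libraries of HP1_T2 all lay above the 8 T1 libraries. Per length, its mean level was 51.5 scaled reads per 1000 bases in HP1_T2, 13.3 in HP8_T1, 21.4 in HP1_T1, 282 in C and 2110 in WT, whereas none of the other 6 exceeded 214 per 1000 bases in any group.

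The 650-base feature (Nta#S45440953) varied little between WT libraries, and its HP1_T2 and C libraries overlapped. It had 24.5, 27.7, 21.1 and 30.5 scaled reads in HP1_T2, 8.72, 11.53, 6.28 and 11.7 in HP8_T1, and 7.05, 6.08, 2.88 and 11.96 in HP1_T1. Its C libraries held 21.5, 34.6, 33.4 and 28.3 scaled reads, and its WT libraries 143, 142, 137 and 134. All libraries of HP1_T2 and C lay below every WT library, and all of HP1_T2 above every T1 library.

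The 848-base feature followed the same shape with a wider spread. Its libraries held 40.8, 33.5, 48.5 and 34.4 scaled reads in HP1_T2, 10.7, 9.37, 4.89 and 18.7 in HP8_T1, and 6.17, 14.0, 7.48 and 7.97 in HP1_T1. In C they held 33.2, 36.01, 37.6 and 55.04, and in WT 143, 102, 120 and 147. HP1_T2 and C overlapped, and all libraries of both lay under the lowest WT library.

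For the 579-base feature, C and WT overlapped and HP1_T2 lay under both. It had 32.6, 18.4, 23.8 and 19.1 scaled reads in HP1_T2, 12.6, 8.65, 10.5 and 5.44 in HP8_T1, and 8.81, 8.52, 10.4 and 15.9 in HP1_T1. Levels were 52.8, 46.1, 54.2 and 46.1 in C and 71.5, 54.1, 52.2 and 41.8 in WT. The highest HP1_T2 library was below the lowest library of either control group.

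The 731-base feature was the scarcest in T1 plants. HP1_T2 libraries had 29.6, 23.5, 16.5 and 18.1 scaled reads, HP8_T1 libraries 2.91, 4.32, 0 and 1.55, and HP1_T1 libraries 7.05, 6.08, 5.18 and 5.31. The 0 stands for 0 reads in the third HP8_T1 library, where a count of 0 allows up to 3 reads, or 2.09 scaled reads, by counting error alone. C had 19.5, 36.01, 20.9 and 25.3 scaled reads and WT 41.6, 43.7, 52.2 and 41.8. All HP8_T1 libraries lay under all HP1_T1 libraries here, which was so for no other member.

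The 886-base and 945-base features had the smallest fitted changes of the 7 between HP1_T2 and WT. The 886-base feature had 21.4, 24.3, 33.9 and 38.2 scaled reads in HP1_T2, 11.6, 18.7, 11.2 and 14.0 in HP8_T1, and 13.2, 13.4, 12.7 and 6.64 in HP1_T1. It had 44.9, 18.7, 44.5 and 35.7 in C and 36.6, 54.1, 52.2 and 52.8 in WT. Its second C library was as low as the highest HP8_T1 library, so it was the 1 member whose T1 libraries were not all below its other libraries. The 945-base feature had 27.5, 28.5, 24.7 and 19.1 scaled reads in HP1_T2, 11.6, 7.93, 9.78 and 13.2 in HP8_T1, and 9.69, 14.6, 8.63 and 7.97 in HP1_T1. C had 33.2, 33.1, 30.6 and 29.8 and WT 34.9, 37.99, 30.5 and 44.2, so that C and WT overlapped and every HP1_T2 library lay under both. In 6 of the 7 members all 8 T1 libraries thus lay below all 12 others, an arrangement found in 3.42% of the 1170 features with at least 20 in HP1_T2, C and WT; the rule used this contrast, so nothing is read from the count.

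**Figure D2:**
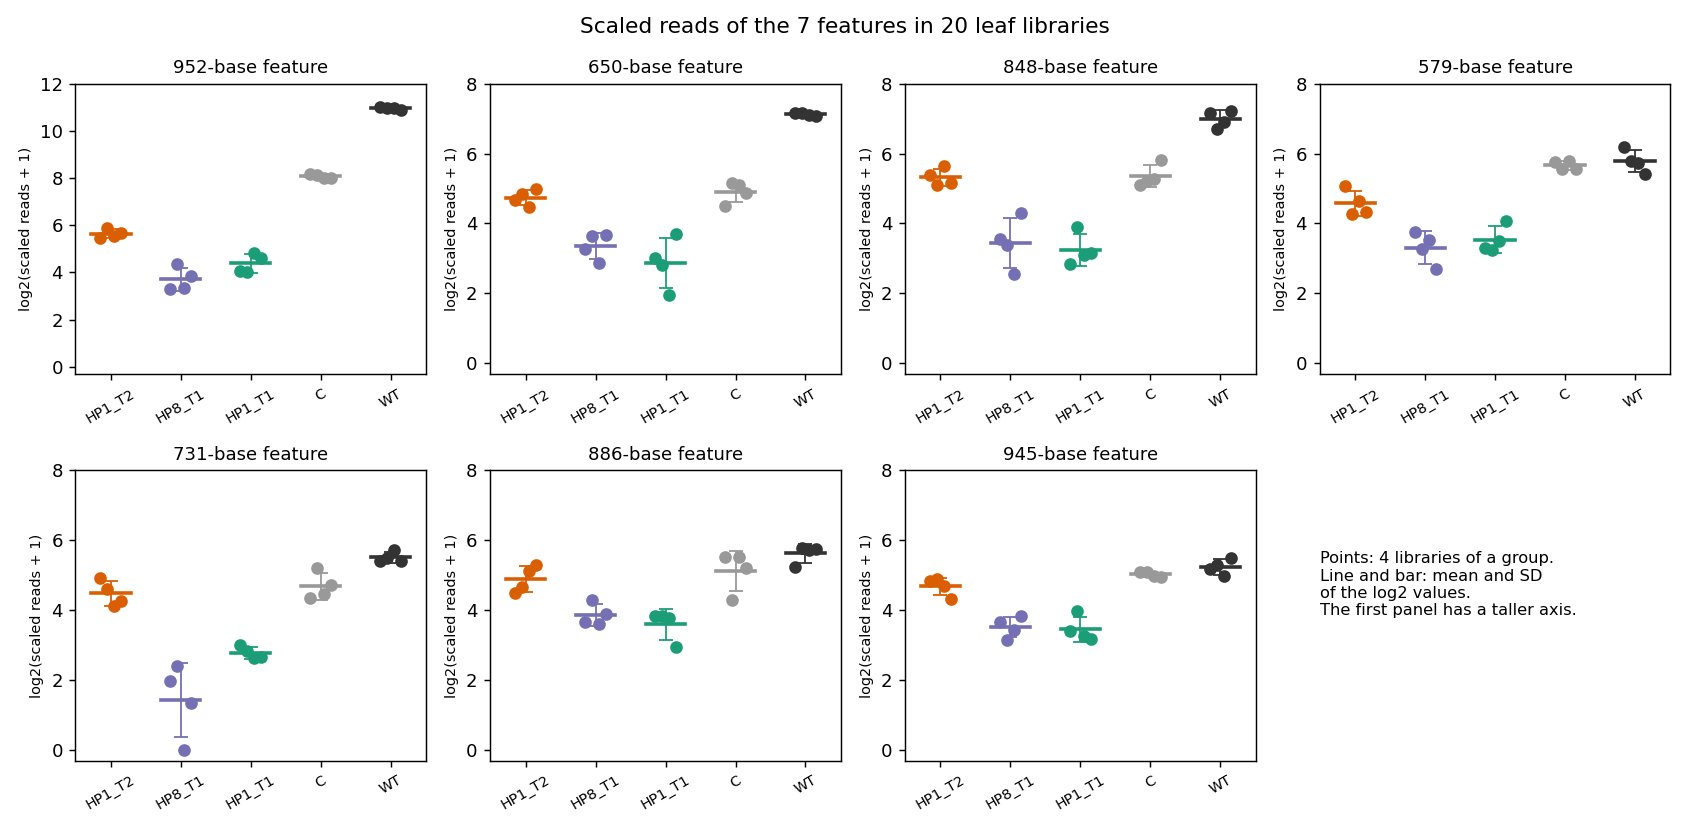
Scaled reads of each of the 7 features on a log2 scale after adding 1 (vertical axis) in the 4 libraries of each group, ordered HP1_T2, HP8_T1, HP1_T1, C and WT; lines and bars are the mean and SD of the log2 values. The 952-base feature falls in steps across WT, C and HP1_T2 to the T1 groups, while the 945-base feature has the smallest step between HP1_T2 (19.1 to 28.5 scaled reads) and WT (30.5 to 44.2).

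HP1_T2 was compared with WT to see how far the features still differed from untransformed plants in the second generation. Of the 7 features, all of which passed the filter on low counts, 7 fell and 0 rose in HP1_T2. Among all 6608 features tested, which were not chosen by group means, 24.5% were called lower and 31.6% higher in HP1_T2 than in WT. The count of 7 beside this share describes chosen features and is not read as an excess. With TMM factors 7 fell as well, beside 25.2% of the features then tested, but 4 fell with the remainder scaling (beside 12.7%) and 3 with library totals (beside 7.14%). The 952-base feature averaged 49.0 ± 6.52 scaled reads in HP1_T2 and 2008 ± 75.5 in WT (SD, n = 4 each), a fitted log2 change of −5.34 (SE 0.10, adjusted p 1.11e-62 by edgeR's quasi-likelihood test). The 650-base feature averaged 25.9 ± 4.09 scaled reads in HP1_T2 and 138.9 ± 4.17 in WT (log2 change −2.41, SE 0.16, adjusted p 2.88e-23). The falls of the 848-base, 579-base and 731-base features were −1.69 (SE 0.16), −1.21 (SE 0.20) and −1.04 (SE 0.23) on the log2 scale, with adjusted p-values of 3.03e-15, 4.47e-07 and 5.8e-05. These are falls of 3.24-fold, 2.32-fold and 2.06-fold, against 40.6-fold for the 952-base feature.

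The smallest falls were those of the 886-base feature, at 29.4 ± 7.89 scaled reads in HP1_T2 and 48.9 ± 8.27 in WT (log2 change −0.75, SE 0.21, adjusted p 0.0012), and of the 945-base feature, at 25.0 ± 4.23 in HP1_T2 and 36.9 ± 5.78 in WT (−0.56, SE 0.21, adjusted p 0.0206). The call of the 945-base feature was lost without the fourth HP1_T2 library (adjusted p 0.0845) or without the fourth WT library (adjusted p 0.0861). All 4 HP1_T2 libraries lay below all 4 WT libraries in 6 of the 7 features, and in 30.2% of the 1170 features with at least 20 in HP1_T2, C and WT. The median fitted log2 change was −1.21 over the 7 features and 0.17 over all features tested. DESeq2 also called 7 lower and 0 higher, and 0 were higher at an unadjusted edgeR p under 0.05.

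HP1_T2 was also compared with empty-vector plants, which went through transformation and regeneration without the hairpin repeat. The repeat is not the only difference: no GUS is named for C, and C plants were regenerants whereas HP1_T2 had grown from seed. These differences cannot be told apart. Here 2 of 7 features fell and 0 rose in HP1_T2, with 14.2% of the 6608 features called lower and 22.1% higher; the same 2 and 0 came from DESeq2, and 0 were higher at an unadjusted p under 0.05. The 952-base feature averaged 49.0 ± 6.52 scaled reads in HP1_T2 and 268.6 ± 14.8 in C (log2 change −2.44, SE 0.12, edgeR adjusted p 8.7e-32). The 579-base feature averaged 23.5 ± 6.54 in HP1_T2 and 49.8 ± 4.31 in C (log2 change −1.09, SE 0.22, edgeR adjusted p 2.99e-05). With library totals, where 2.95% of the features tested were called lower, the first of these fell and the second, at −0.19 on the log2 scale, did not pass.

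The other 5 features did not pass in HP1_T2 against C, which does not show equal levels. Their adjusted p-values ranged from 0.255 to 0.857, and the 95% intervals of their log2 changes, taken as 1.96 SE on either side, lay between −0.78 and 0.36. The 848-base feature was nearest to 0, with 39.3 ± 6.94 scaled reads in HP1_T2 and 40.5 ± 9.89 in C (log2 change −0.06, interval −0.47 to 0.36). That of the 650-base feature was −0.21 (interval −0.66 to 0.25), of the 731-base feature −0.24 (−0.76 to 0.28), of the 886-base feature −0.27 (−0.72 to 0.18) and of the 945-base feature −0.34 (−0.78 to 0.11). With library totals these 5 were called higher in HP1_T2, as were 65% of the 7126 features then tested. All 4 HP1_T2 libraries lay below all 4 C libraries in 3 of the 7 features, which were the 952-base, 579-base and 945-base features, and in 17.7% of the 1170 features.

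The 2 control groups, neither of which carried the hairpin repeat, differed in 4 of the 7 features, which were chosen by the hairpin groups as well. In C against WT, 4 fell and 0 rose, beside 23% of the 6608 features called lower and 20.4% higher; DESeq2 gave the same 4 and 0, and at an unadjusted edgeR p under 0.05 there were 5 lower and 0 higher. The 952-base feature averaged 268.6 ± 14.8 scaled reads in C and 2008 ± 75.5 in WT (log2 change −2.90, SE 0.09, edgeR adjusted p 7.37e-48). The 650-base feature averaged 29.4 ± 5.95 in C and 138.9 ± 4.17 in WT (−2.21, SE 0.18, edgeR adjusted p 1.19e-18). For the 848-base and 731-base features the log2 changes were −1.64 (SE 0.18, edgeR adjusted p 1.76e-12) and −0.81 (SE 0.24, edgeR adjusted p 0.00501). These 4 were also the members whose C libraries all lay below the WT libraries, as in 28.9% of the 1170 features.

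Among the other 3, the 886-base feature had a log2 change of −0.48 between C and WT (interval −0.92 to −0.05, edgeR adjusted p 0.0659). It passed the threshold without the third C library (adjusted p 0.0352) or without the first WT library (adjusted p 0.0228). The changes of the 945-base and 579-base features were −0.22 (interval −0.66 to 0.22) and −0.12 (−0.50 to 0.27). With the remainder scaling the 579-base feature was called higher in C and the 731-base feature no longer passed, which left 3 called lower. Of the 6922 features then tested, 42.7% were called higher in C and 9.43% lower. The authors' deposited table, which compares transformed scores, gave a p under 0.05 with a lower C mean for the same 4 features, from 8.33e-08 for the 952-base to 0.0187 for the 731-base feature, beside 13.1% of all its 24069 features. HP1_T2 against WT and C against WT share the WT libraries, and HP1_T2 against C shares libraries with both, so the 3 sets of values are given side by side only.

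Between the 2 lines in the T1 generation, 2 of 7 features were lower in HP8_T1 than in HP1_T1 and 0 were higher, beside 20.5% and 21.6% of the 6608 features called in these directions; DESeq2 gave the same 2 and 0, and no member was higher at an unadjusted p under 0.05. The 952-base feature averaged 12.6 ± 4.99 scaled reads in HP8_T1 and 20.3 ± 5.76 in HP1_T1 (SD, n = 4 each; log2 difference −0.69, SE 0.21, edgeR adjusted p 0.00523). The 731-base feature averaged 2.20 ± 1.85 in HP8_T1 and 5.91 ± 0.861 in HP1_T1 (−1.39, SE 0.48, edgeR adjusted p 0.0136), which rests on 11 reads in HP8_T1 and 35 in HP1_T1. The remaining 5 differed by −0.26 to 0.48 on the log2 scale, with intervals between −0.83 and 1.09 and adjusted p-values of 0.218 to 0.94. Without the third HP8_T1 library neither difference passed (adjusted p 0.0548 for the 952-base and 0.108 for the 731-base feature), and without the third HP1_T1 library that of the 952-base feature did not (0.0902). Without the fourth HP1_T1 library the 650-base feature was called higher in HP8_T1 (log2 difference 0.89, adjusted p 0.0343). The libraries of the 2 lines overlapped in 6 of the 7 features; all HP8_T1 libraries below all HP1_T1 libraries, as in the 731-base feature, was found in 23.9% of the 1170 features.

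**Figure D3:**
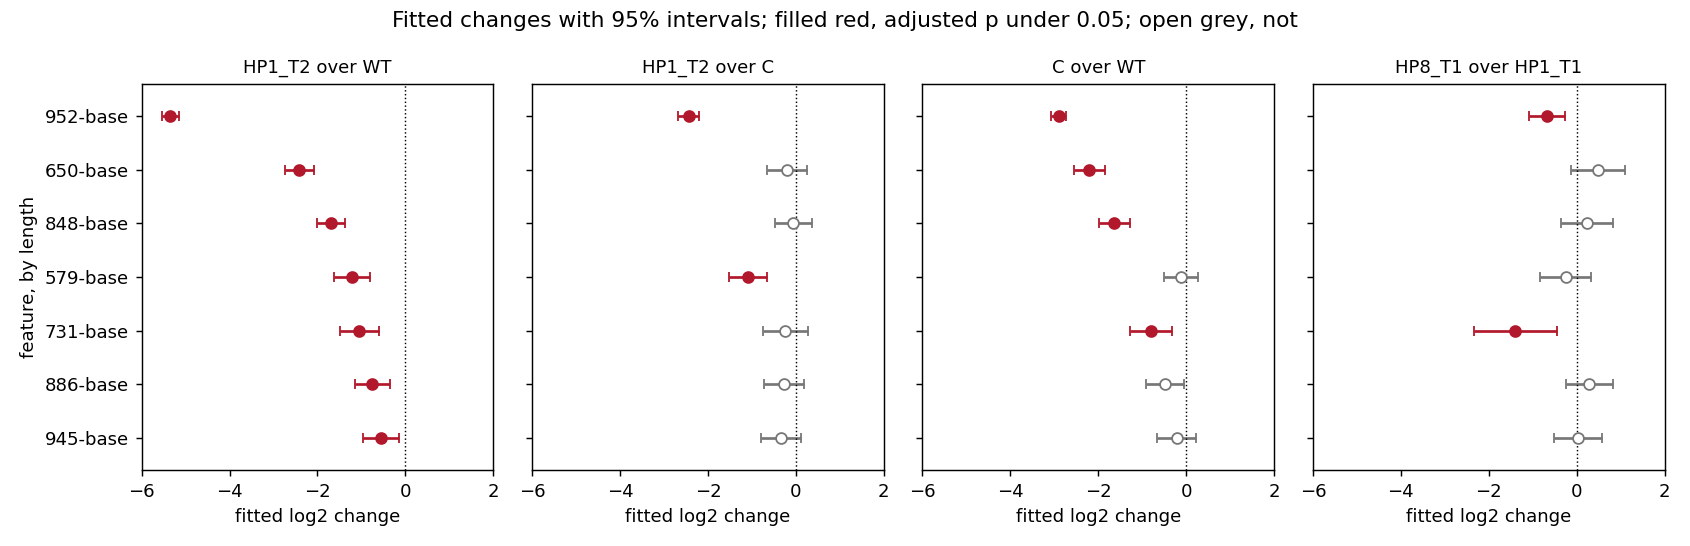
Fitted log2 changes of the 7 features (rows) in the 4 tested comparisons (panels), with 95% intervals as bars; filled red points passed an adjusted p of 0.05 and open grey points did not. With median-ratio size factors every point of HP1_T2 over WT is filled and below 0, from −5.34 to −0.56, whereas in HP1_T2 over C only the 952-base and 579-base features are; under other scalings fewer features pass against WT, and with library totals 5 lie above 0 against C.

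The sign of the smaller changes depended on the scale of the libraries, and the groups also differ in the share of reads taken by the most abundant feature (76.0% to 80.7% in HP1_T2, 88.1% to 90.5% in C and 82.3% to 86.1% in WT libraries). In HP1_T2 against WT, the median change over every feature tested was 0.17 on the log2 scale with median-ratio size factors, 0.13 with TMM factors, 0.81 with the remainder scaling and 1.30 with library totals. Of all calls, 56.3% were higher in HP1_T2 with the first scaling, against 80.4% and 90.4% with the last 2. Relative to these medians, the median change of the 7 features was −1.38, −1.38, −1.46 and −1.51 in the same order. All 7 lay below the median of all features under each of the 4 scalings, the 945-base feature by the least, at −0.85 to −0.72. A change of scaling moves all features by nearly the same amount. In this and the other comparisons, relative values could therefore hardly differ between scalings, and the 4 are not separate checks. On their own scale, the 945-base feature was at 0.01 and 0.44 and the 886-base feature at −0.19 and 0.25 with the last 2 scalings, and neither passed there.

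In HP1_T2 against C, 61.0% of all calls were higher with median-ratio size factors and 95.7% with library totals, and the members' median minus that of all features was −0.43 and −0.49. In C against WT the share of calls that were higher was 46.97%, and 81.9% with the remainder scaling, while the members' median minus that of all features was −0.79 and −0.83. Between HP8_T1 and HP1_T1 the share was 51.3%, against 25.7% with the remainder scaling and 33.3% with library totals, with relative medians of 0.04, 0.06 and 0.05.

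**Figure D4:**
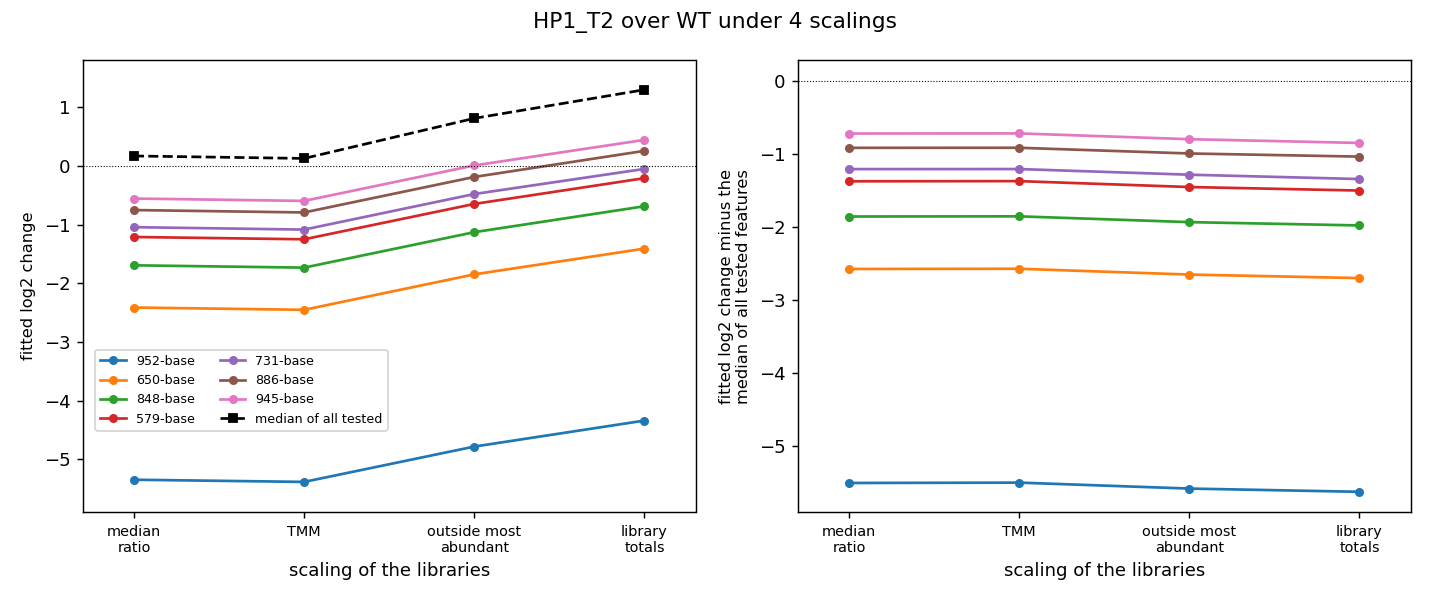
Fitted log2 change of the 7 features in HP1_T2 over WT (vertical axes) under 4 scalings of the libraries (horizontal axes); the left panel shows it as fitted, with the median of all tested features as a dashed line, and the right panel after subtracting that median. The left lines rise with the last 2 scalings, where the 945-base feature crosses 0 in both and the 886-base feature with library totals. The right lines stay below 0 for all 7 features and are nearly flat because a scaling moves all features by nearly the same amount.

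Ranks of the features by mean scaled reads within a group hardly depend on the scale of a library. The rank of all 7 features in HP1_T2 lay between their ranks in the control groups and those in the T1 groups. The rule required higher means in HP1_T2 than in T1, so the better rank than in T1 follows from the choice of features. Their place behind the control ranks was not set by the rule, but its share over other features was not counted. The ranks come from the same group means as the order of the groups given above, so they are not a separate result. Ranks ran from 640 to 1712 in HP1_T2, 3121 to 11577 in HP8_T1, 2012 to 6825 in HP1_T1, 88 to 1288 in C and 27 to 966 in WT, where 1 is the most abundant feature. The 952-base feature ranked 640 in HP1_T2, 3469 in HP8_T1, 2012 in HP1_T1, 88 in C and 27 in WT. Of the summed reads of the 7, the 952-base feature held 22.9% ± 3.25 in HP1_T2, 17.98% ± 4.68 in HP8_T1, 27.2% ± 7.38 in HP1_T1, 55.8% ± 2.41 in C and 81.6% ± 0.804 in WT (SD, n = 4 each). Its share in HP1_T2, 19.5% to 27.1%, overlapped with that in both T1 groups and not with C (53.5% to 58%) or WT (80.5% to 82.3%). A share within a library does not depend on its size factor, but the choice of the 7 depended on the scaling. The 7 were chosen by group means of these same reads, and other sets of features were not compared. Nothing is therefore read from these shares.

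The 7 features had a median length of 848 bases, against 917 in the 1170 features with at least 20 in HP1_T2, C and WT. Reads assigned to a single feature made up 99.4% to 100% of each member's reads, so sharing of reads with another listed sequence was slight. Within groups, the 4 libraries of a member varied by 1.46 times counting noise on average (chi-square per degree of freedom over the 7 features and 5 groups), where 1 is counting noise alone.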

How the data were processed

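Leaf RNA libraries were made from total RNA with the SOLiD total RNA kit, per the labels' protocols; the aligner and the build were not given in the sources used here. Per the file headers, the authors deposited whole-number counts of total and unique gene reads per UniGene feature, with feature lengths, and the difference of mean scores and the p-value of their own t-tests. The WT count columns were identical in both deposited tables, so all 20 libraries were placed together.

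Size factors were the median ratio to a feature's geometric mean over the 1134 features with at least 10 reads in every library. The members, comparisons and settings were chosen with earlier results of these data known. Tests used edgeR 4.0.16 in R 4.3.3 on total gene reads: 1 fit of 20 libraries with group as the only term, these size factors, filterByExpr with a minimum count of 10, quasi-likelihood tests and Benjamini-Hochberg adjustment over the 6608 features kept, at a threshold of 0.05. The SE is the log2 change divided by the root of the F statistic, and 95% intervals are 1.96 SE on either side. The common biological coefficient of variation was 8.88%. The scripts were tested on simulated data. DESeq2 1.42.0, other scalings, unique reads, no filter, fits of 2 groups, a replicate block and leaving out each library were the alternatives.

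Replicate numbers were not used as pairs. By identifier, the rule for named features took the 2 largest called rises and 2 largest called falls in HP1_T2 against WT without overlap of libraries; there were no rises. By length, it took the most abundant members, the extremes of each comparison and those near a threshold; the remaining members are described too because all 7 are.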

Additional observations from a re-analysis of the deposited data

Results flagged for a closer look

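Among 40 groups of 4 libraries (7 features and their sum in 5 groups), a library stood far from the other 3 in 2 cases, both of the 886-base feature. In HP1_T1 its lowest library had 6.64 scaled reads, with the other 3 at 12.7 to 13.4. In WT its lowest library had 36.6 scaled reads, with the other 3 at 52.2 to 54.1. Chance flags about 1 in 20 groups.

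In 2 features the effect differed between the hairpin lines by a direct test, which is 2 of 7, beside 20.5% of the 6608 features tested called lower and 21.6% called higher in HP8_T1. HP8_T1 was lower than HP1_T1 in the 952-base feature, by a log2 difference of −0.69, and in the 731-base feature, by −1.39. Without the third HP8_T1 library, in which the 731-base feature had 0 reads, neither passed (adjusted p 0.0548 and 0.108 by edgeR's quasi-likelihood test), and without the third HP1_T1 library that of the 952-base feature did not (0.0902).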

How the results depend on the processing

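The number of members was 7, and 12 with a minimum group value of 10, 1 with 50, 2 with a ratio of at most 0.333, 0 with library totals and 5 with the remainder scaling (all reads but those of the most abundant feature); leaving out single libraries gave 6 to 8. Of the fitted changes, all 28 kept direction and call with DESeq2, without a filter, with unique reads and with the replicate block, and 27 with TMM factors. With the replicate block the counts called lower were 7 in HP1_T2 against WT, 2 in HP1_T2 against C, 4 in C against WT and 2 between the lines, as without it. Same-numbered libraries of different groups correlated at −0.01 to 0.05 in their deviations from group means, below the 0.1 set for pairing, and the labels give the numbers no shared plant or batch. Yet 21 of 40 correlated best with their own number, and the share of reads in the most abundant feature had the same order of replicate numbers in all 5 groups, a hint from the data, not the design, that same-numbered libraries share something.

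Called lower in HP1_T2 against WT were 4 features with the remainder scaling, 3 with library totals and 6 to 7 without single libraries. In HP1_T2 against C, library totals gave 5 higher and 1 lower, and leaving out libraries 2 lower and 0 higher. In C against WT, the remainder scaling gave 1 higher, and leaving out libraries 4 to 5 lower. Between the lines, the fit of only these 2 groups called 1 lower, since the 731-base feature did not pass its filter, and leaving out libraries gave 0 to 2 lower and 0 to 1 higher.

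Directions turned as follows. With the remainder scaling, HP1_T2 against WT was 0.0058 for the 945-base feature; C against WT was 0.43, 0.17 and 0.53 for the 945-base, 886-base and 579-base features; and the lines differed by −0.27, −0.071 and −0.017 in the 945-base, 848-base and 886-base features. With library totals, HP1_T2 against WT was 0.44 and 0.25 for the 945-base and 886-base features; HP1_T2 against C was 0.57, 0.85, 0.64, 0.70 and 0.67 for the 945-base, 848-base, 886-base, 650-base and 731-base features; and the lines differed by −0.16 in the 945-base feature, or −0.017 with TMM factors. Without single libraries, the values of the 848-base feature ran from −0.17 to 0.13 in HP1_T2 against C and from −0.17 to 0.56 between the lines, and those of the 945-base feature from −0.089 to 0.28 between the lines. Turned values passed no threshold except the 5 against C with library totals and the 579-base feature in C against WT. The causes were not tested beyond the scalings themselves. Depth limits T1 values most: members had 0 to 47 reads per T1 library.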
